A study of Mus musculus with 8 samples.

Results

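The 38 genes described here encode the machinery that copies DNA and the enzymes that supply its nucleotides: the MCM2-7 helicase subunits and their loaders, helicase activators, the sliding clamp and its loader, polymerases and primase, the single-strand binding complex RPA, enzymes that process the lagging strand, nucleotide enzymes, and factors that reassemble chromatin on new DNA. They were found by gene name and are 38 of the 27398 gene names on the array. Each of the 38 passed the filter on dim probes, which asked for a signal well above background on both arrays of any 1 group. RNA came from dendritic cells (DC) of male C57BL/6Jax mice, which were wild type (WT) or carried a knockout (KO) of the microRNA miR-155. Their bone marrow was grown whole for 7 days with 40 ng/mL GM-CSF, and part of it was then given LPS, a component of bacterial cell walls, at 100 ng/mL for 16 h. Sorted CD86- cells from cultures without LPS gave the WT unstimulated and KO unstimulated groups, and sorted CD86+ cells gave the WT LPS and KO LPS groups, with 2 one-colour arrays in each. A difference between LPS and unstimulated cells is therefore also a difference between 2 sort gates. The labels do not say whether the 2 samples of a group came from separate animals or cultures, so p-values measure only the spread between these samples, which may be technical. No gene name on the array was that of the deleted microRNA, and the genotype was taken from the labels.

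A cell copies its genome once per division. Before S phase, ORC, Cdc6 and Cdt1 load the MCM2-7 helicase on origins, and geminin (Gmnn) blocks Cdt1 once copying has begun. Kinases then activate the helicase, polymerases extend primers made by primase, the PCNA ring holds the polymerases on DNA, and CAF-1 places histones behind the fork. Many of these genes are transcribed shortly before S phase under E2F factors, which bind short GC-rich strings in promoters and are held back by RB proteins in resting cells; CCAAT strings, bound by NF-Y, are also common in promoters of cycling genes. Bone marrow progenitors divide in GM-CSF culture, and mature DC divide little.

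The promoters of 31 of the 38 genes were matched by symbol in a RefSeq table (mouse build GRCm38.p6, 250 bases before to 50 bases after each start). These genes had 38 such windows, since some have several starts. Both strands were searched for CCAAT and for 4 E2F-type strings, with overlapping matches counted separately: TTCCCGC (in 14 of the 31 genes and 4.6% of all promoters of the table), TTGGCGC (10 genes, 2.45%), TTCGCGC (8 genes, 1.59%) and TTGCCGC (2 genes, 1.81%). The 5 promoters below are given 5′ to 3′ from 170 bases before to 30 bases after the start. They show genes with both kinds of string and genes with neither, and none with only 1 kind. Mcm5 and Mcm6 have several E2F-type strings beside CCAAT, and Rrm1 has 1 E2F-type string between a pair of CCAAT strings. Tk1 and Tyms, whose differences after LPS had opposite signs, have none. Capitals mark the E2F-type and CCAAT strings, adjoining or overlapping ones as 1 run.
Mcm5 (chr8:75109339-75109538, plus strand): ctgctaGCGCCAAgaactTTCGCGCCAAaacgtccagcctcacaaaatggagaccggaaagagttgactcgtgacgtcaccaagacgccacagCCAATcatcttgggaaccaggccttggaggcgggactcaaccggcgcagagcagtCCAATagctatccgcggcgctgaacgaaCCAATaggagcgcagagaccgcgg
Mcm6 (chr1:128359676-128359875, minus strand): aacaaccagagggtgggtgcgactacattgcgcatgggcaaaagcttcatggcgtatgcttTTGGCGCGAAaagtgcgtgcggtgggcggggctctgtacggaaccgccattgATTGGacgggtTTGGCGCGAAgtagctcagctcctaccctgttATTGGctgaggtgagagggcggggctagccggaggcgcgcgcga
Rrm1 (chr7:102441525-102441724, plus strand): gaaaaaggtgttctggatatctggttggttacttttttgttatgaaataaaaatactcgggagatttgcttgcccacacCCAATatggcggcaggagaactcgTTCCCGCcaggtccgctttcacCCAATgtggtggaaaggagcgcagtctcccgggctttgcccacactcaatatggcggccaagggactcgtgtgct
Tk1 (chr11:117825985-117826184, minus strand): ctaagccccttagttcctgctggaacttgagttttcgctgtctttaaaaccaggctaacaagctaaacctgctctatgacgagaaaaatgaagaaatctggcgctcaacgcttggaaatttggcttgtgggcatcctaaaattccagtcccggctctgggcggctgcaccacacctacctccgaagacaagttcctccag
Tyms (chr5:30073596-30073795, minus strand): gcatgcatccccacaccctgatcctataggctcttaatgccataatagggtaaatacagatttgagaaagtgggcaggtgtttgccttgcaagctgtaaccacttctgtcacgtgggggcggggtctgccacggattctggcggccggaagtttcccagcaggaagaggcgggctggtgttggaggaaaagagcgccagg

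An E2F-type string stood in a promoter of 22 of the 31 genes (71.0%), against 9.57% of all 32851 promoters in the table. At least 2 such strings stood in the promoters of 12 genes (38.7%, against 1.18% of all promoters). CCAAT stood in 19 genes (61.3%, against 37.4%), and both kinds in 15 (48.4%, against 3.66%). A gene with several promoters counts here when any of them has the string, which raises its chance of a match. These are matches of letters, not binding sites.

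**Figure D1:**
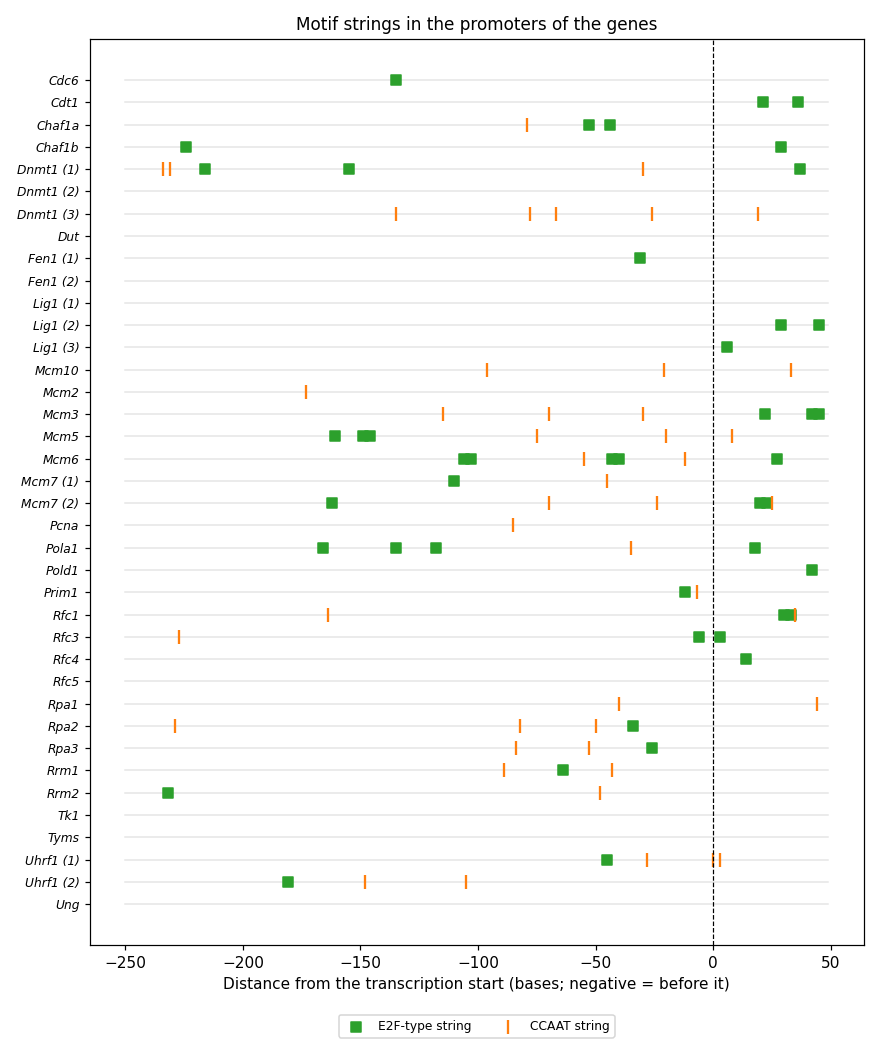
Positions of E2F-type strings (squares) and CCAAT strings (ticks) in the promoter windows, by distance in bases from the transcription start (dashed line); numbers after a name mark separate starts of 1 gene. Most windows hold strings of at least 1 kind, and Dut, Rfc5, Tk1, Tyms and Ung have none.

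After LPS, the replication genes were lower in both genotypes. On the scaled log2 signal (log2 of the processed signal minus the array's own 75th percentile, so that 0 is that percentile), 16 of the 38 fell and 0 rose in WT, at a limma adjusted p under 0.05 over all genes tested. That is 42.1% of them, where 10.7% of all genes were called lower and 9.48% higher. In KO 25 of 38 fell (65.8%) and 0 rose, where 10.5% of all genes were called lower and 10.3% higher. The median log2 difference of the 38 was −1.71 in WT and −1.82 in KO, beside medians of 0.00 and 0.05 over all genes. In each genotype 37 of the 38 point estimates were below 0, and Tyms, thymidylate synthase, was the gene above 0.

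All 4 LPS arrays lay below all 4 unstimulated arrays for 34 of the 38 genes, as they did for 22.6% of all genes. Within WT both LPS arrays were below both unstimulated arrays for 35 genes (32% of all genes), with overlap in Mcm6, Rfc3 and Tyms. Within KO this also held for 35 genes (30.6% of all genes), with overlap in Rfc3 and Rpa3 and with Tyms above (33.1% of all genes). No gene of the 38 had both WT LPS arrays above both unstimulated ones, as 30% of all genes did. In these bulk samples, fewer dividing cells and less RNA of a gene per cell cannot be told apart.

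The number of calls rested on single arrays. In WT it was 7 without WT unstimulated replicate 1, 30 without WT unstimulated replicate 2, 3 without WT LPS replicate 1 and 5 without WT LPS replicate 2. In KO it was 3 when either KO unstimulated array was left out, 4 without KO LPS replicate 1, 9 without KO LPS replicate 2 13 when either WT LPS array was left out and 30 when either WT unstimulated array was left out, since all groups share 1 estimate of the spread. With the slide as a block, 7 of the 38 genes were called lower in WT (median −1.74), where 2175 of 15401 genes were called in either direction. In KO 10 of the 38 were called lower (median −1.89), where 2351 of 15400 genes were called in either direction. Within slide 1, the only slide with both WT states, the WT median was −1.56. Within slide 2, the only one with both KO states, the KO median was −2.14. Of the WT calls, Tk1 alone was kept under all 20 alternative settings, with adjusted p from 0.0035 to 0.0316, and of the KO calls none was. Counted in both directions, the share of the 38 called was below that of all genes in some fits with fewer arrays. All calls of the 38 were lower, whereas those of all genes went both ways. Whether the excess of lower calls over all genes held under every setting was therefore not shown. Point estimates were steadier, and 36 genes were below 0 under every setting in each genotype. The others were Mcm6 and Tyms, of mixed sign in WT, Rfc3, of mixed sign in KO, and Tyms in KO, above 0 throughout.

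**Figure D2:**
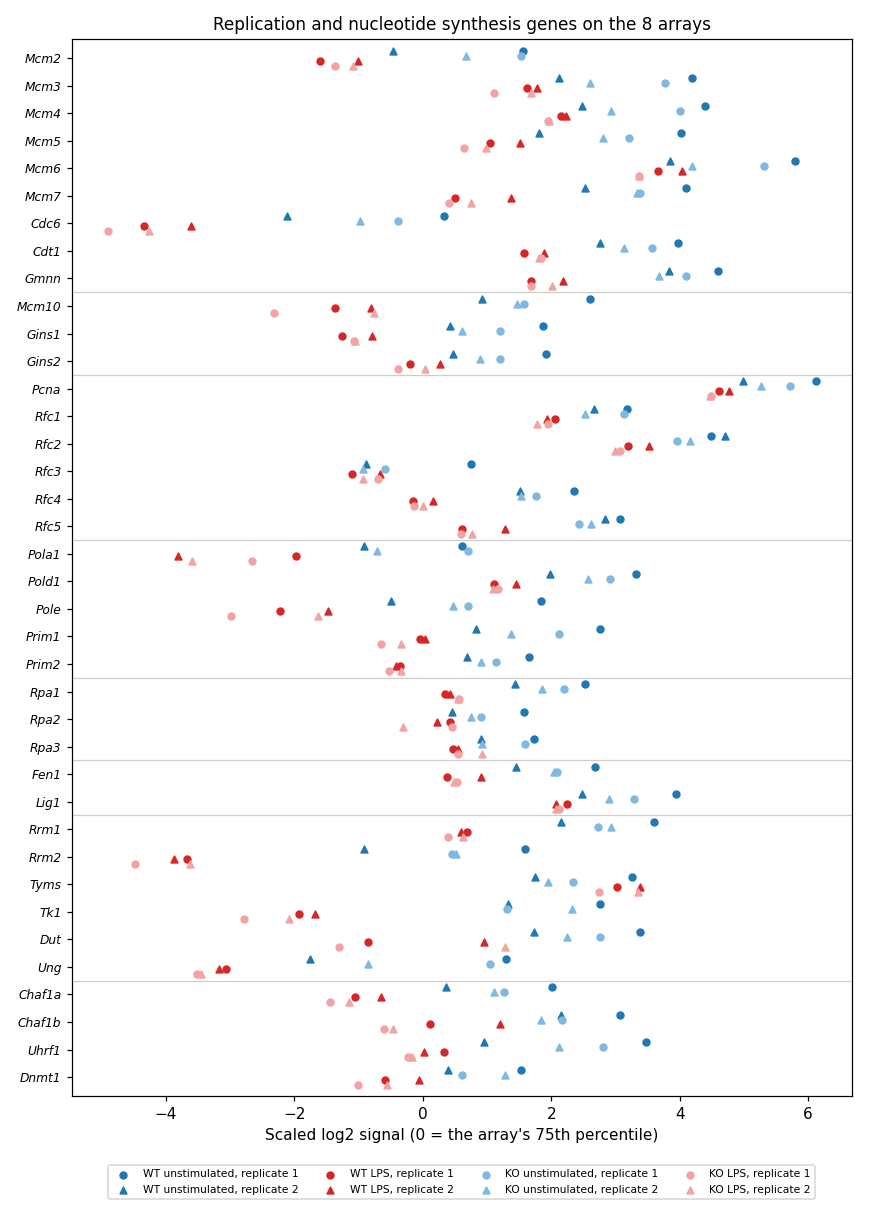
Scaled log2 signal of each of the 38 genes on each of the 8 arrays (colour, group; circles, replicate 1; triangles, replicate 2), with lines between the roles. Red LPS points lie left of blue unstimulated points for all 4 against all 4 arrays in 34 genes, and WT unstimulated replicate 1 is the rightmost unstimulated point in 36.

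Among the 9 licensing genes 4 fell in WT and 5 in KO, with medians of −1.63 and −2.05. Cdc6, the ATPase that loads the helicase and is destroyed and remade in each cycle, had the largest drop. Its scaled log2 signals were 0.33 and −2.12 on the WT unstimulated arrays, −4.34 and −3.61 on the WT LPS arrays, −0.38 and −0.98 on the KO unstimulated arrays and −4.91 and −4.26 on the KO LPS arrays. No LPS array reached an unstimulated one, although the unstimulated WT arrays differed by more than 2 log2 units. Cdc6 fell in both genotypes (−3.08 ± 0.76, adjusted p = 0.0324, in WT and −3.91, adjusted p = 0.0139, in KO). Its signal on KO LPS replicate 1 was close to the lowest one well above background on that array, −5.10. Over the alternative settings its difference ran from −4.31 to −1.86 in WT and from −4.23 to −1.05 in KO, so the size of the drop is uncertain. Here and below, values in parentheses are log2 differences ± SE from limma, with n = 2 arrays per group and the same SE in both genotypes. The other loader, Cdt1, fell in both genotypes (−1.63 ± 0.42, adjusted p = 0.0374, in WT and −1.52, adjusted p = 0.0463, in KO). Its inhibitor geminin fell in both genotypes (−2.28 ± 0.36, adjusted p = 0.00718, in WT and −2.05, adjusted p = 0.0098, in KO), so the loader and its inhibitor were lower together.

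Of the 6 helicase subunits, Mcm7 fell in both genotypes (−2.37 ± 0.55, adjusted p = 0.025, in WT and −2.78, adjusted p = 0.0141, in KO). Mcm2 gave 1.56 and −0.46 on the WT unstimulated arrays, −1.60 and −1.01 on the WT LPS arrays, 1.53 and 0.67 on the KO unstimulated arrays and −1.37 and −1.08 on the KO LPS arrays. Both LPS groups lay below both unstimulated groups, and WT unstimulated replicate 2 stood closest to them. Its difference was −1.85 ± 0.66 (adjusted p = 0.0953) in WT, without a call, and it fell by 2.33 (adjusted p = 0.0483) in KO. Mcm6 had the smallest difference of the licensing genes, with 5.80 and 3.84 on the WT unstimulated arrays, 3.66 and 4.03 on the WT LPS arrays, 5.31 and 4.20 on the KO unstimulated arrays and 3.37 and 3.36 on the KO LPS arrays. The WT groups overlapped, because unstimulated replicate 2 lay between the 2 LPS arrays, and the KO groups did not. Neither value passed the test: −0.98 ± 0.66 (adjusted p = 0.339) in WT and −1.39 (adjusted p = 0.187) in KO. Mcm3, Mcm4 and Mcm5 had differences from −1.63 to −1.24 in WT and from −2.19 to −1.51 in KO, also without a call. The MCM subunits form a ring with 1 copy of each. The differences of all 6 were below 0 in both genotypes, although 5 of the 6 had no call in WT.

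Of the helicase activators, Mcm10, which is needed to unwind origins, and Gins1, a subunit of the GINS complex, fell in both genotypes. Mcm10 gave 2.61 and 0.92 on the WT unstimulated arrays, −1.37 and −0.81 on the WT LPS arrays, 1.58 and 1.46 on the KO unstimulated arrays and −2.32 and −0.76 on the KO LPS arrays. The LPS arrays were all below the unstimulated ones, with KO LPS replicate 1 lowest. It fell in both genotypes (−2.86 ± 0.68, adjusted p = 0.0276, in WT and −3.06, adjusted p = 0.0211, in KO), and Gins1 fell in both genotypes (−2.17 ± 0.50, adjusted p = 0.0245, in WT and −1.98, adjusted p = 0.0326, in KO). Gins2, a second subunit of the same complex, gave 1.92 and 0.47 on the WT unstimulated arrays, −0.20 and 0.26 on the WT LPS arrays, 1.21 and 0.89 on the KO unstimulated arrays and −0.38 and 0.03 on the KO LPS arrays. Its groups did not overlap either. Its SE was close to that of Gins1 and its differences were smaller, and the values of −1.17 ± 0.49 (adjusted p = 0.142) and −1.22 (adjusted p = 0.13) were not called.

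The clamp and its loader had smaller differences, with medians of −1.08 in WT and −1.02 in KO. Rfc2, Rfc4 and Rfc5, subunits of the loader, fell in both genotypes, with differences of −1.24, −1.93 and −2.01 in WT and −1.03, −1.70 and −1.85 in KO. Rfc5 had close replicates, with 3.07 and 2.84 on the WT unstimulated arrays, 0.61 and 1.28 on the WT LPS arrays, 2.43 and 2.62 on the KO unstimulated arrays and 0.59 and 0.76 on the KO LPS arrays. Its lowest unstimulated array was more than 1 log2 unit above its highest LPS array, and its adjusted p was 0.00591 in WT and 0.00745 in KO. Rfc3, another subunit of the same loader, gave 0.75 and −0.88 on the WT unstimulated arrays, −1.1 and −0.67 on the WT LPS arrays, −0.59 and −0.93 on the KO unstimulated arrays and −0.69 and −0.93 on the KO LPS arrays. One array, WT unstimulated replicate 1, stood above the other 7, which overlapped whatever their treatment. Its differences were −0.82 ± 0.52 (adjusted p = 0.315) in WT and −0.05 (adjusted p = 0.962) in KO. Rfc1, the large subunit, differed by −0.93 and −0.97 and Pcna, the clamp, by −0.86 and −1.01, with no call.

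All 5 polymerase and primase genes fell in KO and 1, Prim2, fell in WT. Prim2, the large primase subunit, fell in both genotypes (−1.56 ± 0.36, adjusted p = 0.0239, in WT and −1.45, adjusted p = 0.0298, in KO). Pola1, the catalytic subunit of polymerase alpha, which extends the primer, gave 0.61 and −0.91 on the WT unstimulated arrays, −1.98 and −3.81 on the WT LPS arrays, 0.71 and −0.72 on the KO unstimulated arrays and −2.66 and −3.59 on the KO LPS arrays. The LPS arrays were lower throughout and spread over nearly 2 log2 units. It fell by 3.12 ± 0.82 (adjusted p = 0.0382) in KO, and the WT difference was −2.75 (adjusted p = 0.0579).

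Pole, the catalytic subunit of the leading-strand polymerase epsilon, gave 1.83 and −0.49 on the WT unstimulated arrays, −2.23 and −1.47 on the WT LPS arrays, 0.71 and 0.47 on the KO unstimulated arrays and −2.98 and −1.63 on the KO LPS arrays. WT unstimulated replicate 2 lay well below the other unstimulated arrays and still above every LPS array. Pole fell by 2.90 ± 0.79 (adjusted p = 0.0426) in KO, with −2.52 (adjusted p = 0.0662) in WT. Pold1, the catalytic subunit of polymerase delta, which copies mainly the lagging strand, gave 3.32 and 1.99 on the WT unstimulated arrays, 1.11 and 1.46 on the WT LPS arrays, 2.91 and 2.57 on the KO unstimulated arrays and 1.18 and 1.09 on the KO LPS arrays. The 4 LPS arrays were close together below the unstimulated ones. Pold1 fell by 1.61 ± 0.44 (adjusted p = 0.0448) in KO, with −1.37 (adjusted p = 0.0745) in WT. Prim1, the catalytic primase subunit, gave 2.76 and 0.82 on the WT unstimulated arrays, −0.04 and 0.04 on the WT LPS arrays, 2.12 and 1.37 on the KO unstimulated arrays and −0.66 and −0.34 on the KO LPS arrays. All LPS arrays were below all unstimulated ones, and Prim1 fell by 2.25 ± 0.61 (adjusted p = 0.0424) in KO, with −1.79 (adjusted p = 0.0851) in WT.

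The RPA subunits, which coat single-stranded DNA, had the smallest differences of the roles, with medians of −0.81 and −0.76. Rpa1, the large subunit, gave 2.53 and 1.44 on the WT unstimulated arrays, 0.34 and 0.42 on the WT LPS arrays, 2.20 and 1.85 on the KO unstimulated arrays and 0.56 and 0.55 on the KO LPS arrays. Its groups did not overlap, and it fell in both genotypes (−1.60 ± 0.38, adjusted p = 0.0289, in WT and −1.47, adjusted p = 0.0373, in KO). Rpa3, the small subunit, gave 1.74 and 0.90 on the WT unstimulated arrays, 0.47 and 0.55 on the WT LPS arrays, 1.59 and 0.92 on the KO unstimulated arrays and 0.55 and 0.93 on the KO LPS arrays. In KO 1 LPS array lay between the 2 unstimulated arrays, and the differences of −0.81 ± 0.38 (adjusted p = 0.185) and −0.52 (adjusted p = 0.391) were not called. Rpa2 differed by −0.70 in WT and −0.76 in KO, without a call. Of the lagging-strand enzymes, Fen1, the flap nuclease that removes primer ends, gave 2.69 and 1.46 on the WT unstimulated arrays, 0.38 and 0.91 on the WT LPS arrays, 2.09 and 2.04 on the KO unstimulated arrays and 0.54 and 0.49 on the KO LPS arrays. The LPS arrays were lower throughout, and Fen1 fell by 1.55 ± 0.43 (adjusted p = 0.044) in KO, with −1.43 (adjusted p = 0.0576) in WT. Lig1, the ligase that seals the fragments, gave 3.94 and 2.48 on the WT unstimulated arrays, 2.25 and 2.07 on the WT LPS arrays, 3.29 and 2.89 on the KO unstimulated arrays and 2.12 and 2.08 on the KO LPS arrays. The groups did not overlap and neither difference was called (−1.05, adjusted p = 0.165, in WT and −0.99, adjusted p = 0.188, in KO).

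Nucleotide supply held both the largest drops and the gene with the opposite sign. Rrm2 encodes the S-phase subunit of ribonucleotide reductase, which makes deoxynucleotides, and its probe lies at chr12:25398619-25398674 (build mm9, as the files write it). It gave 1.59 and −0.92 on the WT unstimulated arrays, −3.67 and −3.88 on the WT LPS arrays, 0.45 and 0.52 on the KO unstimulated arrays and −4.49 and −3.63 on the KO LPS arrays. Every LPS array was more than 2 log2 units below every unstimulated array, and KO LPS was well above background on 1 of its 2 arrays, so the KO level rests on a signal near the limit of detection. Rrm2 fell in both genotypes (−4.11 ± 0.75, adjusted p = 0.0118, in WT and −4.54, adjusted p = 0.0076, in KO). Its partner Rrm1, the large subunit, whose protein persists through the cycle, fell in both genotypes (−2.24 ± 0.46, adjusted p = 0.0171, in WT and −2.33, adjusted p = 0.0145, in KO).

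Tk1, the cytosolic thymidine kinase of the salvage route (probe at chr11:117677105-117677164), gave 2.76 and 1.33 on the WT unstimulated arrays, −1.92 and −1.68 on the WT LPS arrays, 1.31 and 2.33 on the KO unstimulated arrays and −2.78 and −2.08 on the KO LPS arrays. The gap between the lowest unstimulated and the highest LPS array was about as wide as for Rrm2. Tk1 fell in both genotypes (−3.85 ± 0.56, adjusted p = 0.00517, in WT and −4.25, adjusted p = 0.0032, in KO). Tyms, which makes thymidylate anew from deoxyuridylate (probe at chr5:30387605-30387664), gave 3.26 and 1.74 on the WT unstimulated arrays, 3.03 and 3.38 on the WT LPS arrays, 2.33 and 1.95 on the KO unstimulated arrays and 2.75 and 3.35 on the KO LPS arrays. In WT 1 LPS array lay between the unstimulated pair and the other just above it, and in KO both LPS arrays lay above both unstimulated ones. Neither difference passed the test: 0.70 ± 0.52 (adjusted p = 0.382) in WT and 0.91 (adjusted p = 0.266) in KO. The salvage and the de novo enzyme for thymidylate thus had differences of opposite sign, of which the salvage one was called.

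Dut, which removes dUTP and so keeps uracil out of DNA, had LPS arrays that split by replicate, at −0.86 and 0.95 in WT and −1.30 and 1.29 in KO, against 3.39 and 1.74 in unstimulated WT and 2.75 and 2.24 in unstimulated KO. Both replicate 1 LPS arrays were low and both replicate 2 arrays nearer the unstimulated ones, and the differences of −2.52 ± 1.0 (adjusted p = 0.125) and −2.51 (adjusted p = 0.127) were not called. Ung, the glycosylase that removes uracil already in DNA, gave 1.29 and −1.76 on the WT unstimulated arrays, −3.07 and −3.17 on the WT LPS arrays, 1.04 and −0.85 on the KO unstimulated arrays and −3.52 and −3.46 on the KO LPS arrays. The LPS arrays were close together and low while each unstimulated pair was wide. Ung fell by 3.58 ± 1.0 (adjusted p = 0.0456) in KO, with −2.89 (adjusted p = 0.088) in WT.

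All 4 genes that rebuild chromatin and copy DNA methylation fell in KO, and both CAF-1 subunits also fell in WT. Chaf1a, the large CAF-1 subunit, fell in both genotypes (−2.04 ± 0.52, adjusted p = 0.0354, in WT and −2.48, adjusted p = 0.0178, in KO), as did Chaf1b (−1.95 ± 0.46, adjusted p = 0.0265, in WT and −2.54, adjusted p = 0.0102, in KO). Uhrf1, which recruits Dnmt1 to hemimethylated DNA, gave 3.48 and 0.95 on the WT unstimulated arrays, 0.33 and 0.02 on the WT LPS arrays, 2.80 and 2.12 on the KO unstimulated arrays and −0.22 and −0.17 on the KO LPS arrays. All LPS arrays were below all unstimulated ones, of which WT replicate 2 was the lowest. Uhrf1 fell by 2.66 ± 0.75 (adjusted p = 0.0474) in KO, with −2.04 (adjusted p = 0.102) in WT. Dnmt1, the enzyme that copies methylation to the new strand, gave 1.53 and 0.40 on the WT unstimulated arrays, −0.58 and −0.05 on the WT LPS arrays, 0.61 and 1.29 on the KO unstimulated arrays and −1.0 and −0.56 on the KO LPS arrays. The 2 states did not overlap, and Dnmt1 fell by 1.73 ± 0.46 (adjusted p = 0.0398) in KO, with −1.28 (adjusted p = 0.0981) in WT.

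**Figure D3:**
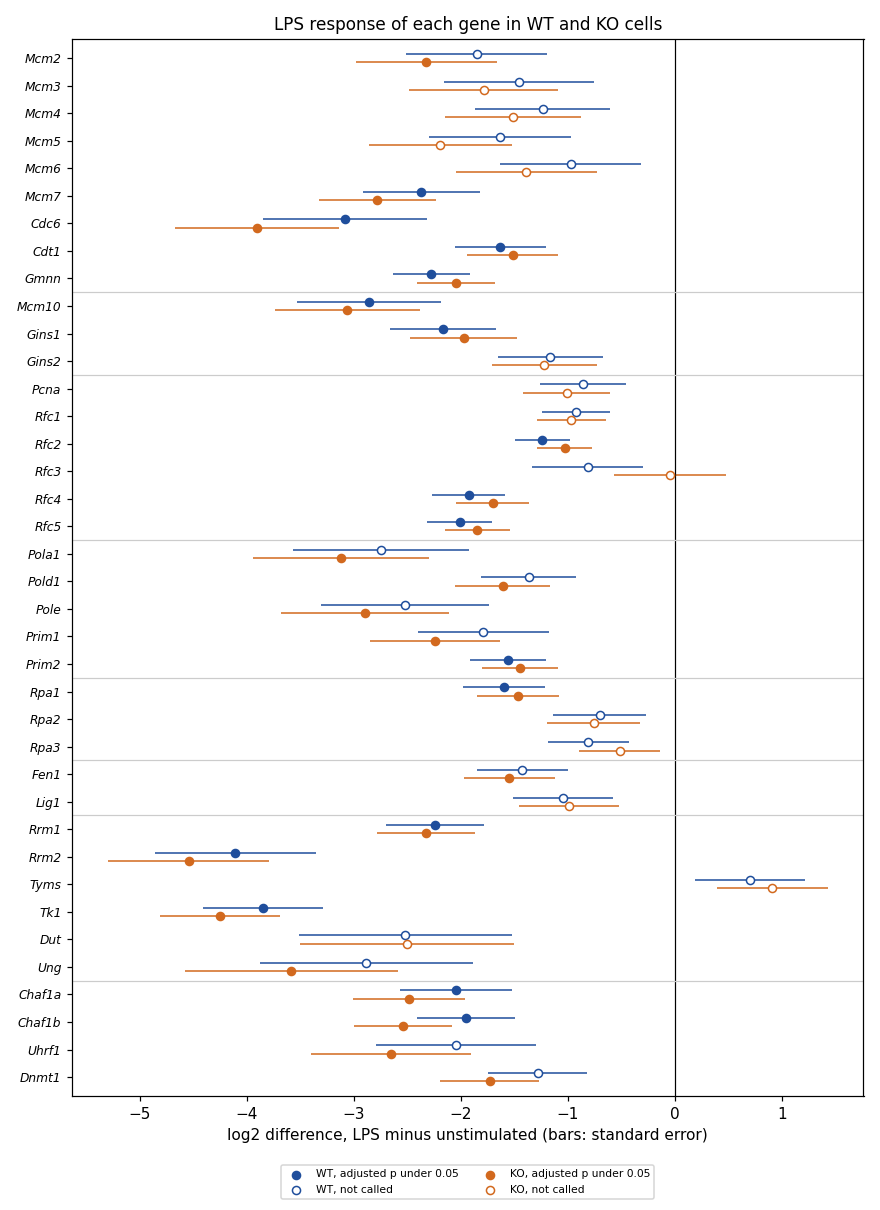
Log2 difference (LPS minus unstimulated) of each gene in WT (blue) and KO (orange), with standard errors from limma; filled points have an adjusted p under 0.05. The 16 filled WT points all have a filled KO point beside them, and 9 genes are filled in KO only.

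The genes with an E2F-type string and those without overlapped in their responses. The 22 with one had median differences of −1.63 in WT and −1.76 in KO, with 8 and 14 called lower, and the 9 without had −2.01 and −2.33, with 4 and 6 called lower. This difference between the subsets was not tested. Single genes went both ways. Rrm2, with 1 string, had the largest drop of the 38 (−4.11 in WT and −4.54 in KO), and Cdc6, also with 1, a large one (−3.08 and −3.91). Tk1, with no string in its window, had one of the largest drops as well. Mcm6, whose promoter holds several, had one of the smaller differences. Tyms, with none, was the gene above 0.

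The 9 calls made in KO and not in WT do not show that the genotypes differ. Tested directly, 0 of the 38 genes differed between KO and WT in unstimulated cells (0.24% of all genes called by limma), 0 after LPS (0.026% called) and 0 in the difference of the LPS responses (0.0455% called), under the reported settings and under each alternative. At an unadjusted p under 0.05 there were 0, 1 and 0 genes. The 1 was Chaf1b, with 0.11 and 1.20 on the WT LPS arrays and −0.60 and −0.47 on the KO LPS arrays. Both KO arrays lay below both WT arrays, and the difference was −1.19 ± 0.46 (adjusted p = 0.9999 by limma). After LPS 11 of the 38 genes had both KO arrays below both WT arrays (9.67% of all genes) and 2, Rpa1 and Rpa3, had both above (11.5%). In unstimulated cells Rfc2 and Rfc5 had both KO arrays below (12.8% of all genes) and none had both above (8.08%).

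The design could not have shown small differences between genotypes. The 95% interval of a KO against WT difference reached from 0.608 to 2.37 log2 units on either side of the estimate, with a median of 1.20, and that of the difference of the responses from 0.859 to 3.35, with a median of 1.70. The median difference of the 38 genes was −0.06 in unstimulated cells, −0.23 after LPS and −0.18 for the difference of the responses. After LPS 33 of the 38 point estimates were lower in KO and 5 higher, where 7807 of 15400 genes were lower. The median after LPS stayed between −0.33 and −0.16 whichever array was left out. The 38 genes share the same arrays, and this count was not tested. The median in unstimulated cells was 0.60 without WT unstimulated replicate 1 and −0.84 without WT unstimulated replicate 2. That of the difference of the responses was −0.86 and 0.60. The sign of both medians therefore depended on which of these arrays was used.

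Those 2 arrays differed more in the replication genes than in most genes. WT unstimulated replicate 1 was the highest of the 4 unstimulated arrays for 36 of the 38 genes, and WT unstimulated replicate 2 the lowest for 31. The median gap, replicate 1 minus replicate 2, was 1.45 log2 units, against −0.11 for all genes, and exceeded 1 in 30 of the 38 genes (78.9%, against 6.77% of all genes). The gap was 0.37 in KO unstimulated cells, −0.33 in WT LPS cells and −0.18 in KO LPS cells. Other genes of the same pathways, counted further on, shared it in part: the median gap of 85 such genes in WT unstimulated cells was 0.78, with 76 of 85 higher on replicate 1 and 41.2% by more than 1. In the 16 fork genes among them the median gap was 1.41, and in the 17 origin recognition and firing genes 1.06. The 12 mitosis genes measured on the same arrays (Ccnb1, Plk1, Aurkb and others) had a median gap of 0.14 in WT unstimulated cells and −0.92 in KO unstimulated cells. Both WT unstimulated arrays lay on slide 1.

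**Figure D4:**
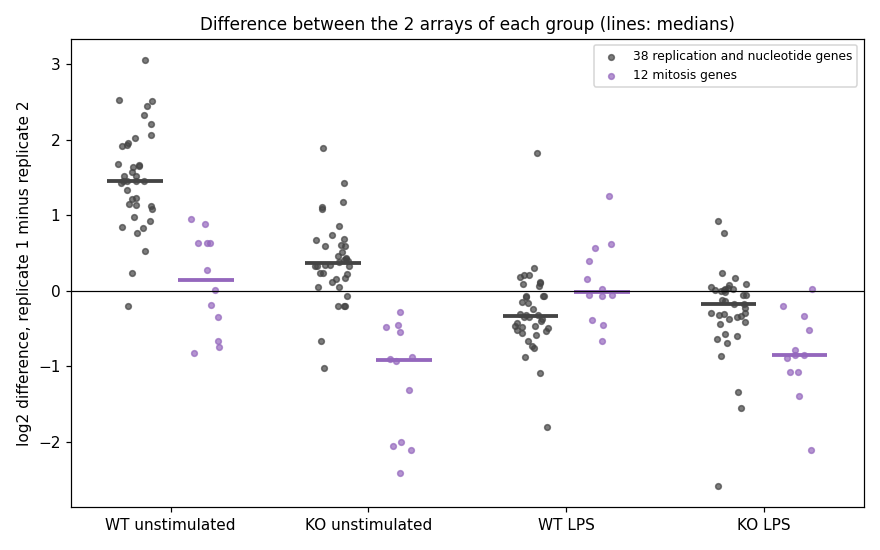
Difference between the 2 arrays of each group (replicate 1 minus replicate 2, log2 units), with 1 point per gene and lines at the medians, for the 38 replication and nucleotide genes (grey) and 12 mitosis genes (purple). The grey points of WT unstimulated cells centre on 1.45, and the purple points of KO unstimulated cells on −0.92.

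Several marker sums, of DC and of other cells, also differed between those arrays. The summed level of 5 mast cell and basophil markers, in multiples of the array's 75th percentile, was 0.85 on WT unstimulated replicate 1 and 3.38 on replicate 2, and 1.02 and 1.91 on the KO pair, and that of 6 monocyte markers 45.4 and 101 in WT and 66.1 and 59.0 in KO. That of 5 early blood progenitor markers was 2.06 and 1.26 in WT and 2.03 and 1.65 in KO. The sum of 9 DC markers was 956 and 1315 in WT and 1092 and 1268 in KO. That of 10 macrophage markers was 209 and 303 in WT and 204 and 288 in KO. The 6 neutrophil markers tested summed to 10.1 and 10.1 in WT and 9.29 and 4.80 in KO. The part of any of these cells in the gap was not tested.

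Marker lists also moved with LPS and the CD86 gate. All 9 DC markers were measured, with summed levels from 956 to 1437 over the 8 arrays. Cd86 and Ccr7, the lymph node homing receptor, rose in both genotypes, and none of the 9 fell. CD86 was also the sort gate, so the rise of Cd86 is not independent of how the groups were made. Of 5 early blood progenitor markers tested, Cd34 fell in both genotypes, Meis1 fell in KO and Kit rose in both, and the summed level went from between 1.26 and 2.06 on the unstimulated arrays to between 0.549 and 0.625 on the LPS arrays. Of 5 mast cell and basophil markers 4 fell in both genotypes, and the summed level was 0.85 to 3.38 on unstimulated and 0.0866 to 0.146 on LPS arrays. Sums of progenitor and of mast cell markers were thus lower on every LPS array than on every unstimulated array. Of 6 monocyte markers 3 fell in both genotypes, with the largest drop in Ccr2, the receptor of recruited monocytes (−5.96 in WT and −6.55 in KO). In each genotype 2 of the 6 had positive differences, up to 0.95 in WT and 2.03 in KO, without a call. The sums ran from 45.4 to 101 on unstimulated and from 19 to 54.5 on LPS arrays. Of 10 macrophage markers 5 fell and 1 rose in each genotype, with sums from 204 to 303 on unstimulated and 180 to 375 on LPS arrays. Of 6 neutrophil markers tested 1 rose and 1 fell in each genotype, with sums from 4.8 to 10.1 and from 8.38 to 10.1, and Elane, Prtn3 and Ngp did not pass the filter. Monocyte, macrophage and neutrophil sums overlapped between the states. Of 4 T and NK cell markers tested 1 rose and 2 fell in each genotype, with sums from 0.214 to 0.393 on unstimulated and from 0.213 to 0.308 on LPS arrays. Of 4 erythroid markers 1 rose in each, with sums from 0.247 to 0.453 and from 0.585 to 7.88. Of 4 stromal markers 3 rose in both genotypes, and the sums went from between 0.0944 and 0.184 to between 2.18 and 12.3. The part of any of these cells in the lower replication genes was not tested.

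Other genes of the same pathways were counted for comparison, in lists chosen by function. Of 85 tested, 16 fell and 2 rose in WT, where 10.7% of all genes were called lower and 9.48% higher. In KO 20 fell and 1 rose, where 10.5% of all genes were called lower and 10.3% higher. The median of the 85 was −0.86 in each. None was called between genotypes. Of 17 origin recognition and firing genes 3 fell in each genotype, led by Recql4, a helicase needed at origins, in WT (−2.61 ± 0.55) and Cdc45, a subunit of the active helicase, in KO (−3.25 ± 0.54). Of 16 fork genes 4 fell in each, among them Clspn, the checkpoint adaptor claspin, which was not well above background after LPS and fell at least 4.06-fold in WT and 6.64-fold in KO. These folds compare the mean unstimulated level with the lowest signal well above background on the LPS arrays, or the gene's own where that was higher. Of 10 genes of primer removal, repair and topology 4 fell in WT, led by Top2a, the topoisomerase of dividing cells (−2.94 ± 0.45), and 5 in KO, led by the nuclease Exo1 (−4.28 ± 1.0). Of 10 histone supply and replication chromatin genes Asf1b, a histone chaperone, and Esco2, which links sister chromatids, fell in both genotypes, Esco2 at least 5.91-fold in WT and 7.30-fold in KO and Asf1b with differences of −3.04 and −3.15.

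The pathway genes that rose were in the deoxynucleotide and pyrimidine list. Of its 19 genes tested 0 fell and 2 rose in WT, and 1 fell and 1 rose in KO. Over all genes 9.48% were called higher in WT and 10.3% in KO, so the share that rose was near or below that of all genes. Mthfd2, a mitochondrial enzyme of the folate cycle, gave 1.31 and 0.79 on the WT unstimulated arrays, 2.43 and 3.12 on the WT LPS arrays, 1.1 and 1.02 on the KO unstimulated arrays and 2.51 and 3.05 on the KO LPS arrays. All LPS arrays were above all unstimulated ones, and Mthfd2 rose by 1.73 ± 0.36 (adjusted p = 0.0176) in WT and by 1.72 (adjusted p = 0.0171) in KO. Samhd1, which breaks down deoxynucleotides, gave 3.97 and 4.50 on the WT unstimulated arrays, 5.29 and 5.74 on the WT LPS arrays, 4.30 and 4.63 on the KO unstimulated arrays and 5.57 and 5.50 on the KO LPS arrays. The LPS arrays were higher in both genotypes, and Samhd1 rose by 1.28 ± 0.31 (adjusted p = 0.0296) in WT, with a KO difference of 1.07 (adjusted p = 0.0511). Shmt2, the serine enzyme that feeds the same mitochondrial folate cycle, fell by 1.31 ± 0.35 (adjusted p = 0.0408) in KO. Of 13 purine synthesis genes 3 fell in WT, led by Paics (−1.22 ± 0.27), and 5 in KO, led by Prps2 (−1.58 ± 0.25), with none higher.

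Of the 8 E2F factors, 2 fell and 1 rose in each genotype. E2f2, an activator, gave 3.81 and 4.61 on the WT unstimulated arrays, −1.81 and −1.83 on the WT LPS arrays, 3.45 and 4.63 on the KO unstimulated arrays and −2.93 and −2.29 on the KO LPS arrays. Each LPS array was more than 5 log2 units below each unstimulated array, and E2f2 fell in both genotypes (−6.03 ± 0.48, adjusted p = 0.000628, in WT and −6.65, adjusted p = 0.000387, in KO). Unlike most replication genes, E2f2 was higher on replicate 2 than on replicate 1 in both unstimulated pairs. The list did not share this: 7 of the 8 factors were higher on replicate 1 in WT unstimulated cells, with a median gap of 0.79. In KO unstimulated cells 5 of the 8 were, with a median gap of 0.27. E2f7, a repressor of the S-phase genes, fell by 3.65 ± 0.72 (adjusted p = 0.0155) in WT and at least 18-fold in KO, where it was not well above background after LPS. E2f5, a repressor that acts with RB proteins, rose by 2.58 ± 0.35 (adjusted p = 0.00399) in WT and by 2.49 (adjusted p = 0.00415) in KO. Of the 12 mitosis genes 10 fell in both genotypes, with medians of −3.79 in WT and −4.26 in KO.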

How the data were processed

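RNA of 8 samples, 2 per group, was hybridised to one-colour Agilent arrays. Scans were read with Agilent Feature Extraction 10.5.1.1, per the file headers. The deposited intensity values are linear signals after background subtraction, with no scaling from array to array. Flags deposited per spot (an other unit, 0 or 1) mark those well above background, saturated or outlying. The authors' deposited log2 values of the series, without a description in the labels, equalled the log2 processed signal plus a constant per array (9.26 to 9.29 above the scaled values used here) and were used as an alternative. Column medians of these were 4.98 to 5.30. Of 45018 spots 1639 were controls; 50.81% to 58.27% were well above background, 120 to 174 per array were outlying and left out, and none was saturated. The 75th percentile intensity was 475.0 to 751.3. The number of arrays limits the precision.

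The log2 processed signal minus each array's 75th percentile was used. Probes with both arrays of any 1 group well above background were kept (23739 of 41174), and the brightest per gene name was taken, giving 15401 genes. Of 52 probes of the 38 genes 48 passed, and 13 of these genes had more than 1 probe. A mean per group was fitted to all 8 arrays with limma 3.58.1 in R 4.3.3 (package data.table, version 1.17.8), with 4 residual and 2.88 prior degrees of freedom, two-sided p-values adjusted by Benjamini-Hochberg over all genes, and calls at 0.05. The script was tested on simulated data with 2 arrays per group. It called 44% of 100 genes changed by 2 log2 units and 87% of 100 changed by 4, with 12 calls among unchanged genes. A gene without a call may therefore still differ. The first principal component (75.55% of the variance) separated LPS from unstimulated arrays and the second (9.57%) replicate numbers 1 and 2. On slide 1 were WT unstimulated replicates 1 and 2, KO unstimulated replicate 2 and WT LPS replicate 2, and on slide 2 the others.

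The genes and lists were chosen with earlier results of these data known. Named with values on each array were, per role, the genes with the largest and smallest response averaged over both genotypes and those called in 1 genotype only; values on each array of Tk1, Dut, Chaf1b, Mthfd2, Samhd1 and E2f2 were added after they were seen. Of the other lists, the called genes with the largest change were named. The B cell marker list is not reported here. Promoters of Gmnn, Rfc2, Prim2, Mcm4, Pole, Gins1 and Gins2 were not used here. Alternatives were the background correction, scaling, probe filter and choice, slide and replicate blocks, a trended prior, the 2 groups alone, and each array left out.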

Additional observations from a re-analysis of the deposited data

How the results depend on the processing

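The number of the 38 genes called lower after LPS moved most, from 16 in WT and 25 in KO. With normexp background correction it was 2 in WT and 8 in KO, and with the slide as a block 7 and 10. With only the 2 groups compared it was 6 in WT, and with no filter on dim probes 11 in KO. The median was −1.56 in WT with slide 1 alone and −2.14 in KO with slide 2 alone. Over all genes, normexp gave calls in either direction for 687 of 15401 in WT and 936 of 15400 in KO. With only the 2 groups compared, 2241 of 15401 genes were called in WT. In WT the share of the 38 called, all lower, was close to the share of all genes called in either direction under both of these settings. Fewer samples enter the single-slide and pairwise fits, and the cause of the other shifts was not tested. Leaving out each array in turn gave 3 to 30 calls in either genotype, with medians from −2.38 to −1.04 in WT and from −2.14 to −1.64 in KO. The medians between genotypes ranged from −0.84 to 0.60 in unstimulated cells, from −0.33 to −0.16 after LPS and from −0.86 to 0.60 for the difference of the responses. Quantile scaling, array medians (which shifted the median of all genes to −0.11 in WT and −0.14 in KO), the deposited table, the mean of a gene's probes, probes detected on all 8 arrays and a trended prior stayed within 1.5 times of both counts. No setting called a gene higher after LPS or called any of the 38 between genotypes.

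With the replicate number as a block, 19 genes were called lower in WT and 26 in KO, with medians of −1.71 and −1.82. The correlation of replicate 1 minus replicate 2 across 15353 genes ran from 0.0131 to 0.692 over the 6 pairs of groups; with only 2 numbers this does not establish that equal numbers mark paired samples.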

Other observations

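Second probes gave a check of single genes within the same arrays, though they share the RNA and are not replicates. Tyms had 3 probes, and all had positive differences: 0.70, 0.72 and 1.60 in WT and 0.91, 0.95 and 1.17 in KO, the last of each on a dim probe that was well above background on 5 of the 8 arrays. The 2 probes of Dut differed by −2.52 and −2.48 in WT and by −2.51 and −2.60 in KO, without a call. Gins1 differed by −2.17 and −2.14 in WT, and Uhrf1 by −2.04 and −2.07. For Chaf1b, Mcm4, Pole and Rrm1 the second probe was well above background on 0 of 8 arrays, so those genes rest on 1 probe each.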
